A study of Mus musculus with 24 samples.

Results

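The mitosis genes described here are 40 named genes of the G2 and M phases of the cell cycle, taken from a table of 55487 gene identifiers by their symbols. All 40 had enough reads to be tested, among 18931 genes in all. RNA-seq was made from 24 mouse libraries, 4 in each of 6 groups. The cells were Lineage-negative, Sca1-positive, KIT-positive (LSK) progenitors, a sorted population that holds blood stem cells and early progenitors. In the ME groups they came from Tet-On mice in which the fusion oncogene MLL::ENL was induced in culture. ME and control cells were both kept in culture for 48 h before RNA was taken, so the libraries show the cultured descendants of the sorted cells. The groups were E16 ME and E16 control from fetal liver, P14 ME and P14 control from bone marrow, and 8wk ME and 8wk control from bone marrow. The alleles of the control mice, the inducing agent and its use in controls are not given in the sources used here, nor is which animals each library came from. The p-values below therefore measure the spread between these libraries, which may in part be technical. E16 differs from the later ages in tissue as well as age, and these cannot be told apart.

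Mitosis is run by the kinase CDK1 with its B-type cyclins. CDK1 is held inactive by WEE1-type kinases until phosphatases of the CDC25 family release it, and it then drives chromosome condensation and spindle assembly together with the Polo-like and Aurora kinases. The spindle checkpoint holds the anaphase-promoting complex (APC/C), a ubiquitin ligase, inactive until every kinetochore is attached. CDC20 then activates the APC/C, which degrades securin and cyclin B and lets the chromatids part. Most of these genes are transcribed late in the cell cycle, through MuvB complexes that contain B-MYB or FOXM1 and bind a cell cycle homology region (CHR), and through NF-Y at CCAAT boxes. Cycling progenitors carry this program, and quiescent stem cells carry little of it.

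The promoters are shown first, because most members with a promoter window at hand, though not all, hold CHR-type or CCAAT letters. RefSeq promoter windows on GRCm38.p6, running from 250 bases before to 50 bases after a start site, were at hand for 33 of the 40 members, in 36 windows. The windows were searched on both strands for CHR-type letters, TTTGAA or TTCGAA, and for CCAAT. The first 4 windows below belong to Cdc20, Aurka, Cdca8 and Hmmr, members that were lower in ME cells at all 3 ages. The last belongs to Ccnb2, which passed the test at no age. Each of these windows holds both motifs, while Ccnb1 and Cenpe, also lower at all 3 ages, have no CHR-type match. Matches of either motif are in capitals and all other bases are in lower case.
Cdc20, chr4:118437294-118437593, minus strand: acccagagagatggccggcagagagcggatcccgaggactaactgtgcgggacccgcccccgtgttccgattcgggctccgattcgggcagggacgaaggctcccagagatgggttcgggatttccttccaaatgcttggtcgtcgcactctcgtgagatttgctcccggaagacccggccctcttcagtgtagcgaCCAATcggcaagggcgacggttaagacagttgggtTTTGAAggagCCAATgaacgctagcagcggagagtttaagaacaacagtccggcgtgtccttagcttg
Aurka, chr2:172370521-172370820, minus strand: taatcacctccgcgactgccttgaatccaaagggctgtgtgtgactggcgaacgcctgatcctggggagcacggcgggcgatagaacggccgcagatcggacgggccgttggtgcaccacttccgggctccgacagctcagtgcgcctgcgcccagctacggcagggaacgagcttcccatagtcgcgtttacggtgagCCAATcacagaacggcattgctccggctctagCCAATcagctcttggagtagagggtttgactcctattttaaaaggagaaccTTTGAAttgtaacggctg
Cdca8, chr4:124936868-124937167, minus strand: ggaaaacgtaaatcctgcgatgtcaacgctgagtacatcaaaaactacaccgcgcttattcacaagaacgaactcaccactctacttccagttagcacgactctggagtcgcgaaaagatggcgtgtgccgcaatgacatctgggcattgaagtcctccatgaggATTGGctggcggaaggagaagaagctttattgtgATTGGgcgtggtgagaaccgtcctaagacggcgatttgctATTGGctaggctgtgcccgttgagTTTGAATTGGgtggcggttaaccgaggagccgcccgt
Hmmr, chr11:40733388-40733687, minus strand: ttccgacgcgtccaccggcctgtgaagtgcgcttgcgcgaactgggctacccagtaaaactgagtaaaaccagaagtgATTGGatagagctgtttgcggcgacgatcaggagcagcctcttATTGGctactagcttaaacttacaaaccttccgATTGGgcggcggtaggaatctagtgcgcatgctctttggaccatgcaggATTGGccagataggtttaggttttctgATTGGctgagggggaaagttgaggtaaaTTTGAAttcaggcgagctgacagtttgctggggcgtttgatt
Ccnb2, chr9:70421505-70421804, minus strand: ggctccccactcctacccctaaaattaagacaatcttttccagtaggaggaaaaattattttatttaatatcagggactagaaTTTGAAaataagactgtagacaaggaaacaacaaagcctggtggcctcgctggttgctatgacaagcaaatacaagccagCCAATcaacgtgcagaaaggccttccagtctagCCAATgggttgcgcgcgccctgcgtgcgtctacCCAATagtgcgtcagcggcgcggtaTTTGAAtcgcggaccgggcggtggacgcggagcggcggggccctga

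A CHR-type match was found in 26 of the 33 members with a window (78.79%), against 5854 of all 27025 genes with one (21.66%). CCAAT was found in 26 of the 33 (78.79%), against 11096 of the 27025 (41.06%). Both kinds of letters stood in the same window for 23 members (69.7%), against 8.61% of all genes. The CHR-type matches clustered at the start site. A match lay no more than 50 bases upstream of the start, or downstream of it, in 26 of the 36 member windows (72.22%), against 1743 of all 32851 windows (5.31%). The DNA replication genes, a late-G1 and S phase group described further on, had CCAAT in 19 of 29 genes (65.52%) and CHR-type letters in 5 of 29 (17.24%). Of the 40 CHR-type matches in member windows, 1 overlapped a CCAAT match. The 7 members with a window but no CHR-type match were Nuf2, Nek2, Cenpe, Mad2l1, Pttg1, Birc5 and Ccnb1. A match is a run of letters and not a measured binding site. By the number of ages at which a member was lower in ME cells, the match was present in 6 of 6 members lower at no age, 7 of 11 lower at 1 age, 7 of 8 lower at 2 ages and 6 of 8 lower at 3 ages.

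**Figure D1:**
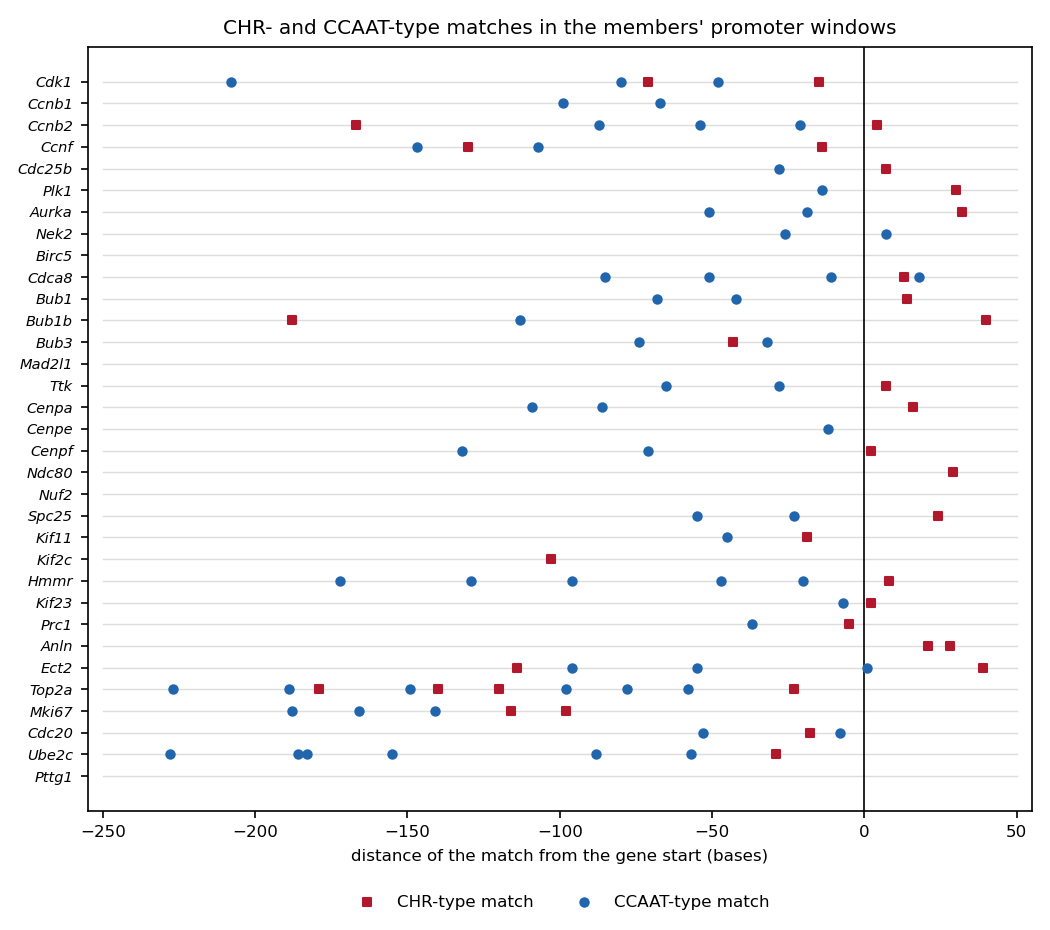
Position of CHR-type (red squares) and CCAAT (blue circles) matches in the promoter window of each of 33 members, 1 window a gene, in bases from the start site at 0, ordered by role. Red squares gather close to the start, and CCAAT matches mostly lie upstream of them.

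The libraries held 33.892 to 69.296 M counts (median 47.136 M). The genes of the fusion checked the labels: at each age the 4 ME libraries were above the 4 control libraries for Mllt1 (ENL) and Kmt2a (MLL), and also for Skida1. On principal components of all genes, E16 ME library 4, 8wk ME library 4 and 8wk control library 1 stood apart from the other libraries of their groups. Calls of members that changed when these 3 libraries were left out are given below. Kit ranged from 375.6 to 1763 CPM and Ly6a, which encodes Sca1, from 61.9 to 827.4 CPM, and the summed lineage gate markers were at most 40.74 CPM in any library. CPM are counts per 1 M counts of a library, after TMM scaling of the library size.

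Many mitosis genes were lower in MLL::ENL cells than in control cells at every age, and none was higher. At E16, 18 of the 40 members were lower and 0 higher (45.0% lower, against a background of 8.47% of all genes lower and 13.3% higher). At P14, 23 were lower and 0 higher (57.5%, against 9.35% lower and 12.7% higher). The fit had no replicate block. With such a block the P14 calls of Cdk1, Cdc25b and Ube2c were lost, and 1181 of 18931 genes were lower. At 8wk, 24 were lower and 0 higher (against 14.3% lower and 14.2% higher). With only the 8wk libraries in the fit, 11 were lower, against 933 of the 16895 genes then tested. A gene is called here at an adjusted p under 0.05 in edgeR's quasi-likelihood test, Benjamini-Hochberg adjusted over all genes tested. At an unadjusted p under 0.05, 22, 30 and 27 members differed at E16, P14 and 8wk, against 6422, 6400 and 7439 of all 18931 genes. The changes were modest: the members' median log2 fold change of ME over control was -0.25 at E16 (range -0.80 to 0.25, all genes 0.02), -0.37 at P14 (range -0.87 to 0.20, all genes 0.03) and -0.35 at 8wk (range -1.14 to 0.13, all genes -0.02).

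The mean log2 CPM over the 40 members separated the groups at each age. It was 6.50 to 6.79 in E16 ME libraries and 6.84 to 6.99 in E16 controls. P14 ME libraries ran from 6.51 to 6.66 and P14 controls from 6.84 to 7.04. At 8wk the ME libraries ran from 6.47 to 6.77 and the controls from 6.86 to 7.12. The groups did not overlap at any age, and the gap was narrowest at E16. Gene by gene, all 4 ME libraries lay below all 4 controls for 18 members at E16, 23 at P14 and 14 at 8wk, against 12.8%, 12.4% and 9.04% of all genes. None lay wholly above at any age. In bulk RNA, fewer cells in mitosis and less of each RNA per cell cannot be told apart. All levels are also relative to the other genes of a library, and the TMM factors were 1.01 to 1.07 in E16 ME libraries and 0.96 to 0.99 in E16 controls.

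**Figure D2:**
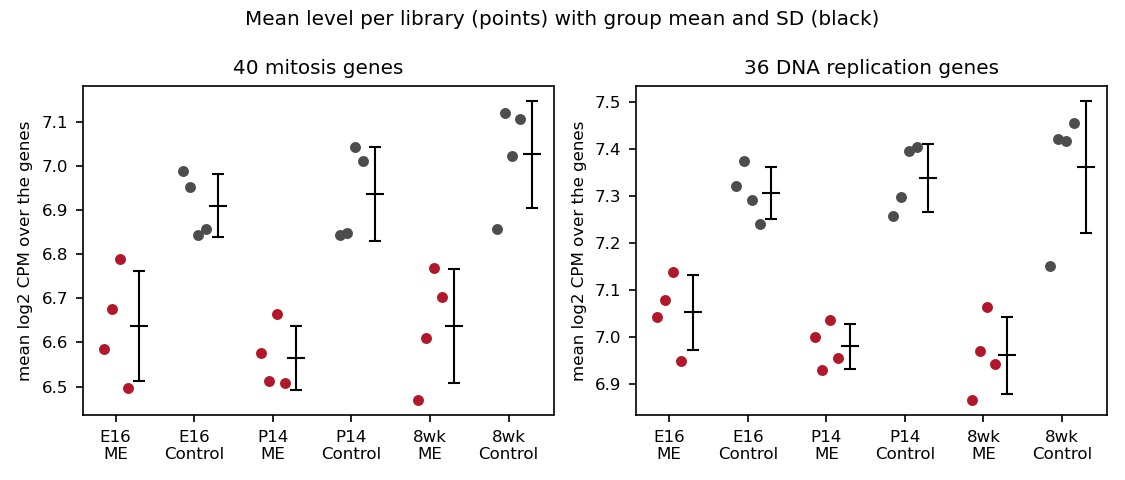
Mean log2 CPM over the 40 mitosis genes (left) and over 36 DNA replication genes (right) in each of the 24 libraries, with the group mean and SD in black. In both panels the 4 ME libraries (red) lie below the 4 control libraries (grey) at each age.

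At E16 the count depends on single libraries. It was 7 of 40 without ME library 4 (1055 of all 19405 genes lower) and 7 without control library 1 (1259 of 19303). It was 11 without ME library 1 (1331 of 19400) and 10 without control library 2 (1100 of 19461). Without the 3 libraries that stand apart it was 10, the calls lost being those of Ccnf, Plk1, Aurkb, Cdca8, Cenpe, Kif2c, Prc1 and Ube2c, with Ect2 the member called higher (log2 fold change 0.26 ± 0.09, SE, adjusted p = 0.0455), and 26 members were then lower at P14 and 26 at 8wk. In that setting 7.54%, 11.4% and 17.2% of all genes were lower at E16, P14 and 8wk. The calls gained were those of Birc5, Kif11 and Pttg1 at P14 and of Bub1b and Kif11 at 8wk. With no scaling beyond library size, 8 members were lower and 1, Ect2, higher at E16, the all-gene median was 0.11 at both E16 and P14, and 74.6% of all calls at E16 and 70.5% at P14 were higher, in place of 61.1% and 57.5%. Of all 18931 genes, 1004 were lower at E16 with library size only, in place of 1603. At 8wk the member count was 14 without control library 3, against 1359 of 19298 genes lower.

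The 12 members lower at all 3 ages were Ccnb1, Cdc25c, Aurka, Aurkb, Incenp, Cdca8, Cenpe, Kif2c, Hmmr, Kif20a, Prc1 and Cdc20. Of all genes tested, 692 (3.66%) were lower at all 3 ages. Without the 3 libraries that stand apart, 7 of these 12 were still lower at all 3 ages (Ccnb1, Cdc25c, Aurka, Incenp, Hmmr, Kif20a and Cdc20), joined by Birc5 and Bub1b, and Aurkb, Cdca8, Cenpe, Kif2c and Prc1 missed the threshold at E16. The share of all genes lower at all 3 ages was not computed without these libraries. The 3 comparisons use separate libraries, but they were fitted together and share an estimate of the spread of each gene, so the 3 tests are not independent. A further 9 members were lower at 2 ages and 11 at 1 age. Ccna2, Ccnb2, Foxm1, Bub3, Spc25, Kif11, Ect2 and Top2a passed the test at no age. Among the members called, 6 of the 18 at E16, 15 of the 23 at P14 and 9 of the 24 at 8wk were called lower under each of 19 alternative settings. Ccnb1 and Cdc20 were in all 3 of these lists. No such counts were made over all genes.

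**Figure D3:**
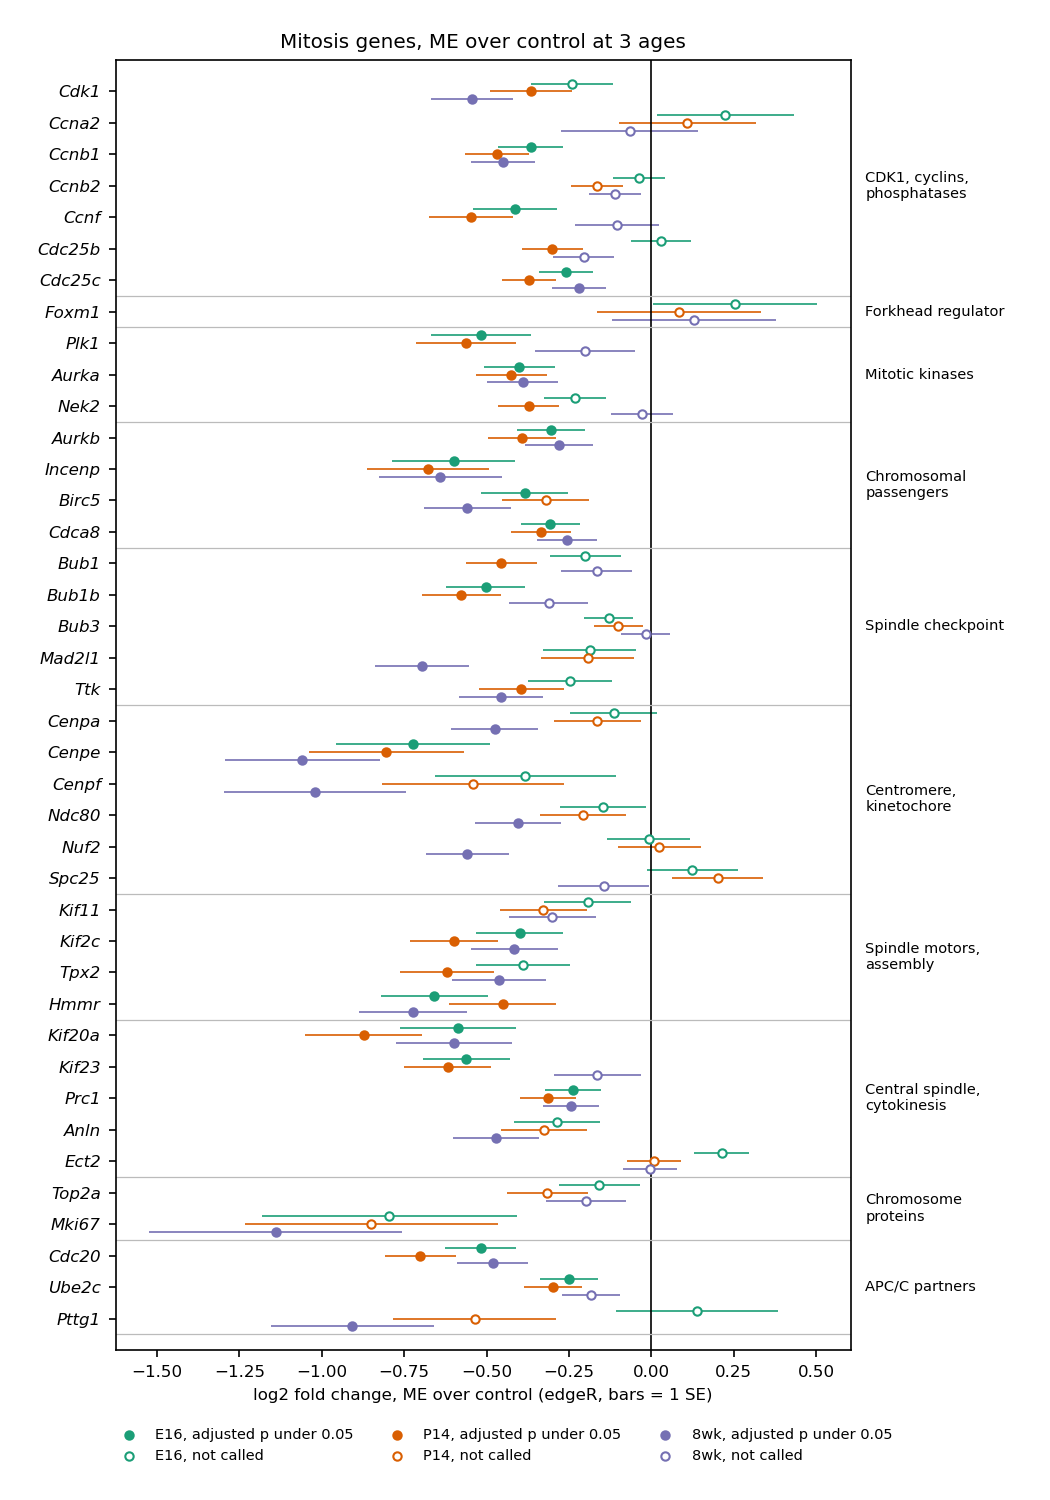
Log2 fold change of ME over control for the 40 mitosis genes at E16 (green), P14 (orange) and 8wk (purple), with 1 SE, grouped by role. Filled points passed the test and all lie left of 0. Mki67, Cenpe and Cenpf extend farthest left, and the 3 points of Foxm1 lie right of 0, none of them called.

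Among CDK1 and its cyclins and phosphatases, 3 of 7 members were lower at E16, 5 at P14 and 3 at 8wk, and none was higher. Ccnb1 encodes cyclin B1, the partner of CDK1 at mitotic entry (ENSMUSG00000041431, chr13:100778650-100786570, GRCm38). Ccnb1 had 422, 416, 428 and 329 CPM in the E16 ME libraries, against 502, 523, 530.2 and 502 CPM in the E16 control libraries. At P14 Ccnb1 had 355, 331, 336 and 306 CPM in the P14 ME libraries, against 442, 448, 436 and 509.7 CPM in the P14 control libraries. At 8wk Ccnb1 had 384, 376, 374 and 337 CPM in the 8wk ME libraries, against 407, 491, 591 and 521 CPM in the 8wk control libraries. Every ME library was below every control library of its age. The Ccnb1 log2 fold change was -0.37 ± 0.10 (SE, adjusted p = 0.00946) at E16, -0.47 ± 0.10 (SE, adjusted p = 0.0014) at P14 and -0.45 ± 0.10 (SE, adjusted p = 0.00171) at 8wk. Cdc25c encodes a phosphatase that activates CDK1. Cdc25c had 44.1, 47.6, 46.5 and 42.0 CPM in the E16 ME libraries, against 52.4, 51.7, 55.2 and 56.2 CPM in the E16 control libraries. At P14 Cdc25c had 36.9, 37.7, 39.8 and 38.9 CPM in the P14 ME libraries, against 50.4, 49.4, 49.5 and 49.1 CPM in the P14 control libraries. At 8wk Cdc25c had 41.1, 43.7, 39.8 and 36.1 CPM in the 8wk ME libraries, against 40.9, 47.9, 48.1 and 50.1 CPM in the 8wk control libraries. The Cdc25c groups were separate at E16 and P14 and overlapped at 8wk through control library 1. Its log2 fold change was -0.26 ± 0.08 (SE, adjusted p = 0.0268) at E16, -0.37 ± 0.08 (SE, adjusted p = 0.0022) at P14 and -0.22 ± 0.08 (SE, adjusted p = 0.0488) at 8wk.

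Ccnb2, the second B-type cyclin and the most abundant member per kilobase of exon (165.05 CPM per kb over the 6 groups), had log2 fold changes of -0.04 ± 0.08 (SE, adjusted p = 0.779), -0.16 ± 0.08 (SE, adjusted p = 0.147) and -0.11 ± 0.08 (SE, adjusted p = 0.316) at E16, P14 and 8wk. Ccna2, cyclin A2, had 0.22 ± 0.21 (SE, adjusted p = 0.482), 0.11 ± 0.21 (SE, adjusted p = 0.764) and -0.07 ± 0.21 (SE, adjusted p = 0.85). Neither passed the test. Ccnf, cyclin F, a substrate receptor of an SCF ubiquitin ligase, was lower at E16, at -0.41 ± 0.13 (SE, adjusted p = 0.0225), and at P14, at -0.55 ± 0.13 (SE, adjusted p = 0.0033), and stood at -0.10 ± 0.13 (SE, adjusted p = 0.587) at 8wk. The E16 value of Ccnf was -0.37 ± 0.14 (SE, adjusted p = 0.0728) without the 3 libraries that stand apart, and 2 of the 7 members were lower at E16. Cdk1 itself was lower at P14 (-0.37 ± 0.12, SE, adjusted p = 0.0383) and 8wk (-0.54 ± 0.12, SE, adjusted p = 0.00263), with -0.24 ± 0.12 (SE, adjusted p = 0.178) at E16. Cdc25b was lower at P14 (-0.30 ± 0.09, SE, adjusted p = 0.0216). With the replicate number as a block within every age, which pairs same-numbered libraries, the P14 values of Cdk1 and Cdc25b missed the threshold (adjusted p = 0.088 and 0.0852).

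Foxm1, the forkhead factor that drives many late cell cycle genes, showed no called change at any age. Foxm1 had 39.3, 48.2, 67.4 and 52.2 CPM in the E16 ME libraries, against 58.3, 53.9, 35.5 and 26.0 CPM in the E16 control libraries. At P14 Foxm1 had 53.4, 52.0, 54.3 and 44.1 CPM in the P14 ME libraries, against 59.6, 43.8, 55.7 and 33.3 CPM in the P14 control libraries. At 8wk Foxm1 had 33.8, 44.4, 58.2 and 53.9 CPM in the 8wk ME libraries, against 53.8, 49.8, 26.3 and 44.0 CPM in the 8wk control libraries. Its groups overlapped at each age, and the lowest library of each age was a control. The Foxm1 log2 fold change was 0.25 ± 0.25 (SE, adjusted p = 0.507), 0.08 ± 0.25 (SE, adjusted p = 0.856) and 0.13 ± 0.25 (SE, adjusted p = 0.743). Mybl2, which encodes the B-MYB subunit that joins the same MuvB complex, was lower at all 3 ages, at -0.83 ± 0.17 (SE, adjusted p = 0.00132), -0.87 ± 0.17 (SE, adjusted p = 0.000782) and -0.52 ± 0.17 (SE, adjusted p = 0.0255).

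All 3 mitotic kinases were lower at P14, with 2 of 3 lower at E16 and 1 at 8wk. Plk1 encodes Polo-like kinase, which acts from centrosome maturation to cytokinesis. Plk1 had 168, 172, 210.3 and 146 CPM in the E16 ME libraries, against 277, 262, 228 and 230.3 CPM in the E16 control libraries. At P14 Plk1 had 168, 123, 124 and 105 CPM in the P14 ME libraries, against 186, 162, 228 and 191 CPM in the P14 control libraries. At 8wk Plk1 had 129.9, 110.2, 112 and 104 CPM in the 8wk ME libraries, against 131, 138, 95.6 and 159 CPM in the 8wk control libraries. The groups were separate at E16, overlapped at P14 by 1 library on each side, and overlapped at 8wk, where control library 3 was the lowest of all 8. Plk1 log2 fold changes were -0.52 ± 0.15 (SE, adjusted p = 0.0172), -0.56 ± 0.15 (SE, adjusted p = 0.00991) and -0.20 ± 0.15 (SE, adjusted p = 0.347). The E16 value of Plk1 was -0.44 ± 0.17 (SE, adjusted p = 0.0675) without the 3 libraries that stand apart, and Aurka alone of the kinases was lower at E16. Aurka encodes Aurora A, the spindle pole kinase. Aurka had 188, 175, 187 and 128 CPM in the E16 ME libraries, against 229, 227, 220.3 and 217 CPM in the E16 control libraries. At P14 Aurka had 142, 141, 133 and 123 CPM in the P14 ME libraries, against 170.0, 183, 181 and 191 CPM in the P14 control libraries. At 8wk Aurka had 152, 147, 146 and 129.8 CPM in the 8wk ME libraries, against 155, 179, 213 and 206 CPM in the 8wk control libraries. Every ME library was below every control of its age, most narrowly at 8wk. Aurka log2 fold changes were -0.40 ± 0.11 (SE, adjusted p = 0.0101), -0.43 ± 0.11 (SE, adjusted p = 0.00652) and -0.39 ± 0.11 (SE, adjusted p = 0.00961). Nek2, a centrosome-splitting kinase, was lower at P14 (-0.37 ± 0.09, SE, adjusted p = 0.00591) and had -0.23 ± 0.09 at E16 and -0.03 ± 0.09 at 8wk.

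The chromosomal passenger complex, which corrects faulty spindle attachments and later steers cytokinesis, had 4 of 4 members lower at E16, 3 at P14 and 4 at 8wk. These counts were 2, 4 and 4 without the 3 libraries that stand apart. Incenp encodes its scaffold. Incenp had 55.8, 66.8, 94.2 and 74.1 CPM in the E16 ME libraries, against 128, 119, 96.2 and 98.2 CPM in the E16 control libraries. At P14 Incenp had 76.3, 68.2, 84.1 and 63.5 CPM in the P14 ME libraries, against 103, 82.4, 152 and 130.1 CPM in the P14 control libraries. At 8wk Incenp had 59.7, 71.3, 97.2 and 92.4 CPM in the 8wk ME libraries, against 103, 134, 118 and 144 CPM in the 8wk control libraries. The groups touched only at P14, where the lowest control fell below the highest ME library. Incenp log2 fold changes were -0.60 ± 0.19 (SE, adjusted p = 0.024), -0.68 ± 0.19 (SE, adjusted p = 0.0112) and -0.64 ± 0.19 (SE, adjusted p = 0.0131). Cdca8 encodes borealin, the targeting subunit. Cdca8 had 159, 155, 159 and 127 CPM in the E16 ME libraries, against 196, 188, 175 and 184 CPM in the E16 control libraries. At P14 Cdca8 had 162, 146, 162 and 163 CPM in the P14 ME libraries, against 189, 186, 218 and 206 CPM in the P14 control libraries. At 8wk Cdca8 had 124, 132, 147 and 149 CPM in the 8wk ME libraries, against 154, 169, 149.5 and 187 CPM in the 8wk control libraries. ME and control libraries did not overlap at any age. Cdca8 log2 fold changes were -0.31 ± 0.09 (SE, adjusted p = 0.018), -0.33 ± 0.09 (SE, adjusted p = 0.01) and -0.26 ± 0.09 (SE, adjusted p = 0.0374). Its E16 value without the 3 libraries was -0.23 ± 0.09 (SE, adjusted p = 0.0599). Aurkb, the kinase of the complex, was lower by similar amounts (-0.30 ± 0.10, -0.39 ± 0.10 and -0.28 ± 0.10), and at E16 without the 3 libraries it had -0.22 ± 0.10 (SE, adjusted p = 0.108). Birc5, survivin, was lower at E16 (-0.38 ± 0.13, SE, adjusted p = 0.041) and 8wk (-0.56 ± 0.13, SE, adjusted p = 0.00343), with -0.32 ± 0.13 (SE, adjusted p = 0.0867) at P14, where the fit without the 3 libraries gave -0.32 ± 0.08 (SE, adjusted p = 0.00726).

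The spindle checkpoint had 1 of 5 members lower at E16, 3 at P14 and 2 at 8wk. Bub1b encodes BubR1, which inhibits CDC20. Bub1b had 173, 204, 239 and 176 CPM in the E16 ME libraries, against 295, 295, 272 and 259 CPM in the E16 control libraries. At P14 Bub1b had 189, 191, 212 and 195 CPM in the P14 ME libraries, against 264, 251, 325 and 333 CPM in the P14 control libraries. At 8wk Bub1b had 152, 175, 193 and 204 CPM in the 8wk ME libraries, against 226, 239, 183 and 251 CPM in the 8wk control libraries. The Bub1b groups were separate at E16 and P14 and overlapped at 8wk. Its log2 fold changes were -0.50 ± 0.12 (SE, adjusted p = 0.0044), -0.58 ± 0.12 (SE, adjusted p = 0.00137) and -0.31 ± 0.12 (SE, adjusted p = 0.055). The 8wk value of Bub1b was -0.37 ± 0.14 (SE, adjusted p = 0.0379) without the 3 libraries that stand apart. Mad2l1 encodes MAD2, the other CDC20 inhibitor of the checkpoint. Mad2l1 had 207, 180.0, 164 and 153 CPM in the E16 ME libraries, against 180.2, 194, 209.5 and 219 CPM in the E16 control libraries. At P14 Mad2l1 had 138, 151, 167 and 184 CPM in the P14 ME libraries, against 174, 209, 157 and 191 CPM in the P14 control libraries. At 8wk Mad2l1 had 188, 187, 184 and 163 CPM in the 8wk ME libraries, against 202, 300.5, 381 and 283 CPM in the 8wk control libraries. The groups overlapped at E16 and P14, while at 8wk the controls were high and the ME libraries all lay below them. Mad2l1 log2 fold changes were -0.19 ± 0.14 (SE, adjusted p = 0.376), -0.19 ± 0.14 (SE, adjusted p = 0.363) and -0.70 ± 0.14 (SE, adjusted p = 0.00109). Ttk, the kinase that starts checkpoint signalling, was lower at P14 (-0.39 ± 0.13) and 8wk (-0.46 ± 0.13), and Bub1 at P14 (-0.46 ± 0.11). Bub3, a partner of BUB1 and BubR1, had -0.13 ± 0.07, -0.10 ± 0.07 and -0.02 ± 0.07 and passed at no age.

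At the centromere and kinetochore, 1 of 6 members was lower at E16, 1 at P14 and 5 at 8wk. Cenpe encodes the kinesin that moves chromosomes to the spindle equator. Cenpe had 9.11, 10.3, 13.2 and 8.96 CPM in the E16 ME libraries, against 18.9, 15.3, 13.8 and 20.9 CPM in the E16 control libraries. At P14 Cenpe had 8.25, 8.17, 12.7 and 8.91 CPM in the P14 ME libraries, against 11.1, 14.0, 21.9 and 19.5 CPM in the P14 control libraries. At 8wk Cenpe had 9.04, 14.8, 18.4 and 16.9 CPM in the 8wk ME libraries, against 24.8, 38.3, 26.1 and 34.1 CPM in the 8wk control libraries. Only at P14 did the groups touch, through control library 1 and ME library 3. Cenpe log2 fold changes were -0.72 ± 0.23 (SE, adjusted p = 0.0307), -0.80 ± 0.24 (SE, adjusted p = 0.0165) and -1.06 ± 0.24 (SE, adjusted p = 0.00205). The E16 value of Cenpe was -0.66 ± 0.26 (SE, adjusted p = 0.0828) without the 3 libraries that stand apart, and 0 of the 6 members were lower at E16. Nuf2 encodes a subunit of the NDC80 complex, which grips microtubules. Nuf2 had 102, 97.6, 96.2 and 86.9 CPM in the E16 ME libraries, against 91.7, 95.4, 93.8 and 104 CPM in the E16 control libraries. At P14 Nuf2 had 92.6, 98.5, 117 and 122 CPM in the P14 ME libraries, against 101, 108, 99.6 and 114 CPM in the P14 control libraries. At 8wk Nuf2 had 96.1, 104, 110.3 and 112 CPM in the 8wk ME libraries, against 111, 158, 202 and 152 CPM in the 8wk control libraries. The groups overlapped at each age. The 8wk controls other than library 1 were above all other libraries, and at 8wk the overlap came from ME library 4 and control library 1. Nuf2 log2 fold changes were -0.01 ± 0.13 (SE, adjusted p = 0.976), 0.02 ± 0.13 (SE, adjusted p = 0.921) and -0.56 ± 0.13 (SE, adjusted p = 0.00241). Cenpf (-1.02 ± 0.28, SE, adjusted p = 0.00848), Cenpa, the centromeric histone H3 variant (-0.48 ± 0.13, SE, adjusted p = 0.0103), and Ndc80 (-0.41 ± 0.13, SE, adjusted p = 0.0236) were lower at 8wk. Spc25, another NDC80 complex subunit, had 0.12 ± 0.14, 0.20 ± 0.14 and -0.14 ± 0.14 and was not called.

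Of the spindle motors and assembly factors, 2 of 4 were lower at E16, 3 at P14 and 3 at 8wk. Hmmr encodes a microtubule-binding protein of the spindle pole. Hmmr had 45.0, 45.5, 49.8 and 36.2 CPM in the E16 ME libraries, against 83.9, 68.3, 64.0 and 62.4 CPM in the E16 control libraries. At P14 Hmmr had 51.2, 42.3, 57.5 and 54.1 CPM in the P14 ME libraries, against 61.1, 63.4, 73.1 and 82.9 CPM in the P14 control libraries. At 8wk Hmmr had 36.5, 44.5, 55.5 and 64.3 CPM in the 8wk ME libraries, against 64.1, 88.2, 98.4 and 80.8 CPM in the 8wk control libraries. The groups were separate except at 8wk, where ME library 4 just exceeded control library 1. Hmmr log2 fold changes were -0.66 ± 0.16 (SE, adjusted p = 0.00578), -0.45 ± 0.16 (SE, adjusted p = 0.0496) and -0.72 ± 0.16 (SE, adjusted p = 0.00233). Kif2c encodes a kinesin that depolymerises microtubules at centromeres. Kif2c had 72.4, 76.2, 97.4 and 71.5 CPM in the E16 ME libraries, against 107, 105, 101 and 106 CPM in the E16 control libraries. At P14 Kif2c had 77.8, 72.0, 76.1 and 67.4 CPM in the P14 ME libraries, against 95.1, 105, 127 and 116 CPM in the P14 control libraries. At 8wk Kif2c had 52.7, 65.5, 73.4 and 84.7 CPM in the 8wk ME libraries, against 80.5, 98.6, 81.04 and 109 CPM in the 8wk control libraries. The groups were separate at E16 and P14, and at 8wk ME library 4 exceeded 2 of the controls. Kif2c log2 fold changes were -0.40 ± 0.13 (SE, adjusted p = 0.0338), -0.60 ± 0.13 (SE, adjusted p = 0.0023) and -0.42 ± 0.13 (SE, adjusted p = 0.0219). The E16 value of Kif2c was -0.35 ± 0.13 (SE, adjusted p = 0.0624) without the 3 libraries that stand apart. Tpx2, which activates Aurora A on the spindle, was lower at P14 (-0.62 ± 0.14, SE, adjusted p = 0.00316) and 8wk (-0.46 ± 0.14, SE, adjusted p = 0.0185) and missed the threshold at E16 (-0.39 ± 0.14, SE, adjusted p = 0.053). Kif11, the motor that separates the spindle poles, had -0.19 ± 0.13, -0.33 ± 0.13 and -0.30 ± 0.13 and was not called. It had -0.33 ± 0.12 (SE, adjusted p = 0.0464) at P14 and -0.47 ± 0.14 (SE, adjusted p = 0.0103) at 8wk without the 3 libraries, and the members lower in this role numbered 1, 4 and 4.

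Central spindle and cytokinesis genes had 3 of 5 members lower at each age. Kif20a encodes a kinesin that carries the passenger complex to the central spindle. Kif20a had 60.7, 73.3, 84.7 and 69.6 CPM in the E16 ME libraries, against 119, 120.3, 102 and 91.2 CPM in the E16 control libraries. At P14 Kif20a had 65.3, 57.3, 69.6 and 48.3 CPM in the P14 ME libraries, against 95.7, 84.1, 131 and 129.9 CPM in the P14 control libraries. At 8wk Kif20a had 44.5, 55.4, 72.8 and 85.7 CPM in the 8wk ME libraries, against 87.9, 102, 95.5 and 106 CPM in the 8wk control libraries. ME libraries were below controls throughout, and at P14 Kif20a had the most negative fold change of any member. Kif20a log2 fold changes were -0.59 ± 0.18 (SE, adjusted p = 0.0197), -0.87 ± 0.18 (SE, adjusted p = 0.00106) and -0.60 ± 0.18 (SE, adjusted p = 0.0141). Kif23 encodes the motor subunit of centralspindlin. Kif23 had 64.8, 74.5, 82.9 and 64.0 CPM in the E16 ME libraries, against 111, 115, 102 and 95.1 CPM in the E16 control libraries. At P14 Kif23 had 64.7, 59.8, 64.3 and 62.5 CPM in the P14 ME libraries, against 86.8, 87.7, 99.96 and 111 CPM in the P14 control libraries. At 8wk Kif23 had 51.5, 63.1, 87.3 and 79.9 CPM in the 8wk ME libraries, against 77.0, 85.6, 68.8 and 84.4 CPM in the 8wk control libraries. The groups were separate at E16 and P14 and overlapped at 8wk. Kif23 log2 fold changes were -0.56 ± 0.13 (SE, adjusted p = 0.004), -0.62 ± 0.13 (SE, adjusted p = 0.00174) and -0.16 ± 0.13 (SE, adjusted p = 0.384). Prc1, which bundles antiparallel microtubules, was lower at all 3 ages (-0.24 ± 0.08, -0.31 ± 0.08 and -0.24 ± 0.08), and Anln, anillin, at 8wk (-0.47 ± 0.13, SE, adjusted p = 0.0101). At E16 Prc1 had -0.18 ± 0.09 (SE, adjusted p = 0.157) without the 3 libraries that stand apart, and 2 of the 5 members were then lower. Ect2, the exchange factor that activates RhoA at the cleavage plane, had 0.21 ± 0.08 (SE, adjusted p = 0.0691) at E16 and 0.01 ± 0.08 at P14.

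The mitotic chromosome proteins were not called at E16 or P14, and Mki67 was lower at 8wk. Mki67 encodes the Ki-67 antigen, a coat of mitotic chromosomes and the usual marker of cycling cells. Mki67 had 4.22, 6.62, 11.4 and 7.06 CPM in the E16 ME libraries, against 18.5, 14.9, 7.37 and 9.99 CPM in the E16 control libraries. At P14 Mki67 had 9.45, 11.3, 12.5 and 8.01 CPM in the P14 ME libraries, against 12.3, 10.8, 30.1 and 21.1 CPM in the P14 control libraries. At 8wk Mki67 had 10.3, 14.1, 31.4 and 28.2 CPM in the 8wk ME libraries, against 40.1, 63.3, 31.2 and 50.6 CPM in the 8wk control libraries. Libraries of the same group were widely spread, and the groups overlapped at each age, at 8wk by 1 library on each side. Mki67 log2 fold changes were -0.80 ± 0.39 (SE, adjusted p = 0.151), -0.85 ± 0.38 (SE, adjusted p = 0.122) and -1.14 ± 0.38 (SE, adjusted p = 0.0308). Top2a encodes the topoisomerase that untangles sister chromatids. Top2a had 227, 266, 311 and 268 CPM in the E16 ME libraries, against 332, 306, 287 and 271 CPM in the E16 control libraries. At P14 Top2a had 278, 284, 347 and 287 CPM in the P14 ME libraries, against 338, 325, 419 and 409 CPM in the P14 control libraries. At 8wk Top2a had 271, 299.6, 371 and 389 CPM in the 8wk ME libraries, against 390.1, 425, 336 and 376 CPM in the 8wk control libraries. The groups overlapped at each age. Top2a log2 fold changes were -0.16 ± 0.12 (SE, adjusted p = 0.388), -0.32 ± 0.12 (SE, adjusted p = 0.0691) and -0.20 ± 0.12 (SE, adjusted p = 0.242).

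The partners of the APC/C had 2 of 3 members lower at each age. Cdc20 encodes the activator of the complex in mitosis (ENSMUSG00000006398, chr4:118432901-118437352, GRCm38). Cdc20 had 229.6, 224, 243 and 183 CPM in the E16 ME libraries, against 316, 330.5, 309 and 305 CPM in the E16 control libraries. At P14 Cdc20 had 246, 198, 189 and 172 CPM in the P14 ME libraries, against 296, 295, 355 and 362 CPM in the P14 control libraries. At 8wk Cdc20 had 204, 207, 217 and 207 CPM in the 8wk ME libraries, against 258, 272, 315 and 321 CPM in the 8wk control libraries. No ME library reached the lowest control of its age. Cdc20 log2 fold changes were -0.52 ± 0.11 (SE, adjusted p = 0.00138), -0.70 ± 0.11 (SE, adjusted p = 6.49e-05) and -0.48 ± 0.11 (SE, adjusted p = 0.00206). Ube2c encodes the ubiquitin-conjugating enzyme of the APC/C. Ube2c had 179, 161, 161 and 136 CPM in the E16 ME libraries, against 193, 179, 179 and 208 CPM in the E16 control libraries. At P14 Ube2c had 153, 141, 161 and 169 CPM in the P14 ME libraries, against 184, 189.6, 199.6 and 195 CPM in the P14 control libraries. At 8wk Ube2c had 169.6, 160.4, 161 and 133 CPM in the 8wk ME libraries, against 170.3, 175, 179 and 184 CPM in the 8wk control libraries. The differences were small, and the groups were separate at P14 and narrowly at 8wk. Ube2c log2 fold changes were -0.25 ± 0.09 (SE, adjusted p = 0.0475), -0.30 ± 0.09 (SE, adjusted p = 0.0185) and -0.18 ± 0.09 (SE, adjusted p = 0.13), and the P14 call was lost with the replicate block (adjusted p = 0.0677). The E16 value of Ube2c was -0.18 ± 0.08 (SE, adjusted p = 0.104) without the 3 libraries that stand apart. Pttg1, securin, was lower at 8wk (-0.91 ± 0.25, SE, adjusted p = 0.00897) and had -0.54 ± 0.25 (SE, adjusted p = 0.126) at P14 and 0.14 ± 0.25 (SE, adjusted p = 0.735) at E16. Its P14 value without the 3 libraries was -0.54 ± 0.17 (SE, adjusted p = 0.0267).

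**Figure D4:**
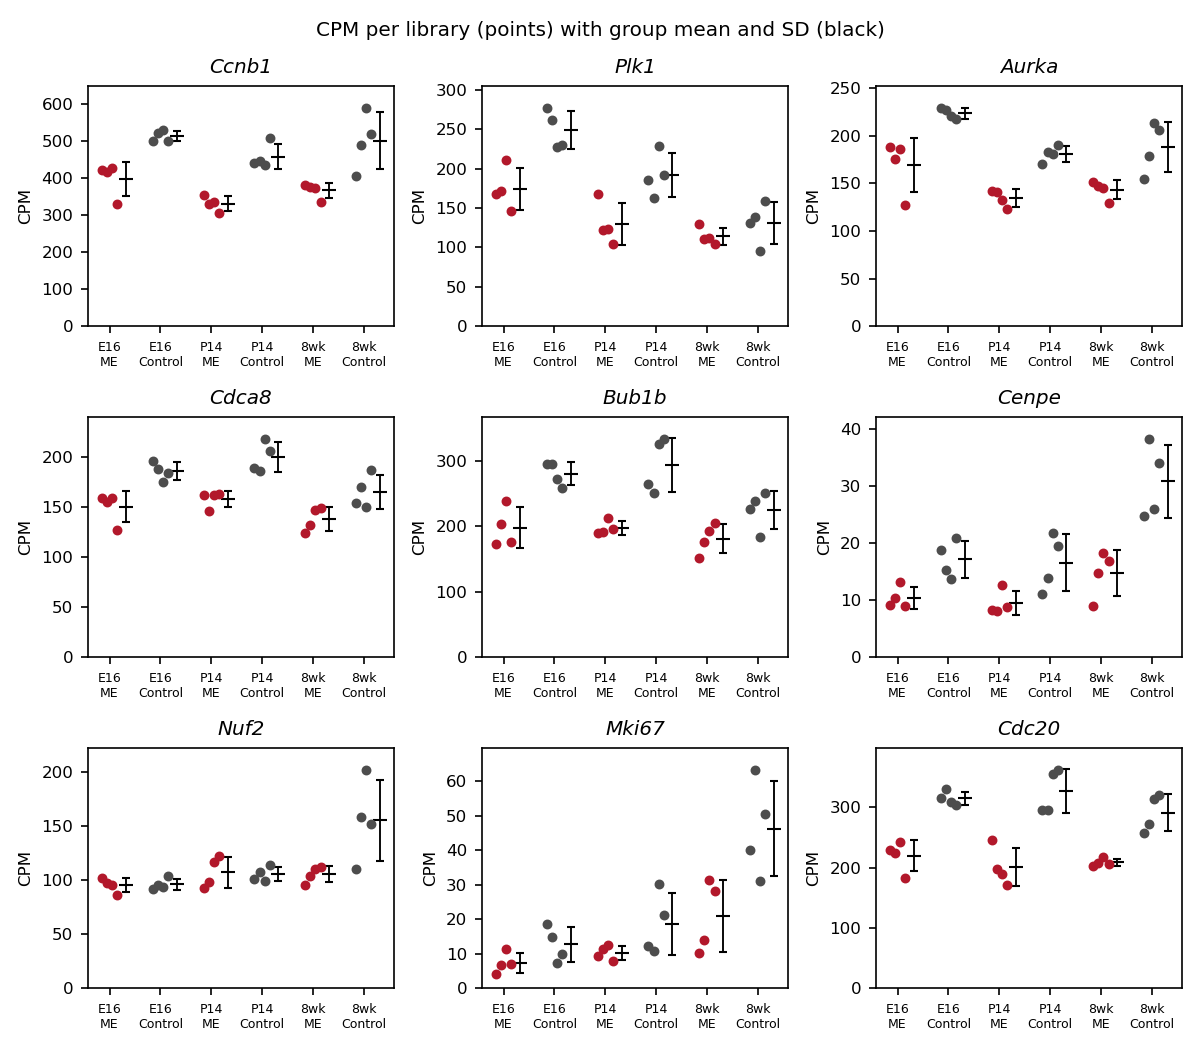
CPM of 9 members in each library, with the group mean and SD in black, ME in red and control in grey. Ccnb1, Aurka, Cdca8 and Cdc20 show ME libraries below controls at all 3 ages, Plk1 and Bub1b mainly at E16 and P14, and Nuf2 and Mki67 with high 8wk controls.

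The size of the ME effect was then compared between ages. For P14 minus E16, 8wk minus E16 and 8wk minus P14, 0 of the 40 members passed the test of the difference, against 0.0211%, 0.85% and 0.301% of all genes. At an unadjusted p under 0.05 there were 1, 4 and 5 of the 40 members, against 888, 2724 and 2202 of all 18931 genes. The members' share was below that of all genes for P14 minus E16 and 8wk minus E16, and close to it for 8wk minus P14. The difference 8wk minus E16 was -0.55 ± 0.18 (SE, adjusted p = 0.137) for Nuf2, -0.51 ± 0.20 (SE, adjusted p = 0.232) for Mad2l1 and -1.05 ± 0.35 (SE, adjusted p = 0.148) for Pttg1, and 0.40 ± 0.19 (SE, adjusted p = 0.328) for Kif23. Without the 3 libraries that stand apart, 5 members (12.5%) passed for 8wk minus E16, against 7.07% of all genes in that setting. They were Nuf2 (-0.76 ± 0.16, SE, adjusted p = 0.00517), Mad2l1 (-0.67 ± 0.18, adjusted p = 0.0259), Cenpa (-0.54 ± 0.14, adjusted p = 0.0231), Cdk1 (-0.46 ± 0.13, adjusted p = 0.0319) and Pttg1 (-0.999 ± 0.271, adjusted p = 0.03). For 8wk minus P14, 2 members passed (5.0%, against 5.24% of all genes), Nuf2 and Mad2l1 (-0.75 ± 0.15, adjusted p = 0.00625, and -0.60 ± 0.17, adjusted p = 0.046). Leaving out 8wk control library 1 alone gave 3 members for 8wk minus E16 (Mad2l1, Nuf2 and Pttg1; 7.5%, against 4.64% of all genes) and 1, Nuf2, for 8wk minus P14 (2.5%, against 1.91%). That library had the lowest CPM of its group for Nuf2 and Mad2l1.

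Between control ages, members changed in both directions. The P14 and E16 controls differed in 1 member, Cdc25b, which was higher at P14 (0 members lower, against a background of 7.51% lower and 7.61% higher). Cdc25b averaged 75.4 ± 5.20 CPM in P14 controls and 41.4 ± 2.06 CPM in E16 controls (SD, n = 4 each), with a log2 fold change at 0.86 ± 0.09 (SE, adjusted p = 7.83e-07). The 8wk controls differed from E16 controls in 12 members, 4 lower and 8 higher (10.0% and 20.0% of members, against 10.8% and 12.5% of all genes). They differed from P14 controls in 12 members, 7 lower and 5 higher (17.5% and 12.5%, against 5.58% and 7.01%). This excess over all genes depended on the libraries in the fit, as given below. The members' median log2 fold change was 0.01, 0.10 and 0.06 for P14 over E16, 8wk over E16 and 8wk over P14, and that of all genes 0.01, 0.05 and 0.05. These 3 comparisons share control libraries.

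The members higher in 8wk than in E16 controls were Mki67, Cenpf, Cenpe, Nuf2, Cdc25b, Mad2l1, Top2a and Prc1. Mki67 averaged 46.3 ± 13.8 CPM in 8wk controls and 12.7 ± 4.99 CPM in E16 controls, with a log2 fold change at 1.86 ± 0.39 (SE, adjusted p = 0.00144). Cenpf averaged 26.1 ± 5.21 CPM and 13.0 ± 2.92 CPM in the same groups (1.00 ± 0.28, SE, adjusted p = 0.0106), and Nuf2 156 ± 37.6 CPM and 96.2 ± 5.48 CPM (0.69 ± 0.13, SE, adjusted p = 0.00034). Those lower were Plk1, Ccnf, Kif23 and Bub3. Plk1 averaged 131 ± 26.6 CPM in 8wk controls and 249 ± 24.2 CPM in E16 controls, with a log2 fold change at -0.93 ± 0.15 (SE, adjusted p = 0.000112). Ccnf had -0.64 ± 0.13 (SE, adjusted p = 0.000789). Against P14 controls, the 8wk controls were higher for Mki67 (1.32 ± 0.39, SE, adjusted p = 0.0295), Cenpe, Mad2l1, Nuf2 and Spc25 and lower for Plk1 (-0.55 ± 0.15, SE, adjusted p = 0.0209), Ccnf, Nek2, Bub1b, Aurkb, Cdca8 and Cdc25b. Without the 3 libraries that stand apart, 2, 18 and 17 members were called for P14 over E16, 8wk over E16 and 8wk over P14 (5.0%, 45.0% and 42.5%, against 19.2%, 28.3% and 18.7% of all genes), with the calls of Top2a for 8wk over E16 and Cdca8 for 8wk over P14 lost. With all libraries, the centromere and kinetochore role gave 3 of the 8 members higher for 8wk over E16 and 0 of the 4 lower. The checkpoint genes Mad2l1 and Bub3 are counted in another role. The share of members lower (10.0%) was no larger than that of all genes (10.8%).

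Over the 40 members the control-age log2 fold change had a Spearman correlation with exon GC content of 0.07 for P14 over E16, -0.54 for 8wk over E16 and -0.66 for 8wk over P14, against 0.015, -0.17 and -0.24 over 18908 genes with a known GC content. The correlation with exon length was 0.26, 0.37 and 0.30 over the members and 0.18, 0 and -0.20 over all genes. At 28.3% to 46.2% GC the median for 8wk over P14 was 0.18 over 18 members and 0.20 over all genes. For 8wk over E16 these medians were 0.25 and 0.14. At 52.3% to 75.9% GC they were -0.23 (8 members) and -0.09 for 8wk over P14, and -0.11 and -0.10 for 8wk over E16. The members share libraries, so these values are a description. Mki67, Cenpe and Cenpf, with exon lengths of 10061, 8620 and 15433 bases, also had the lowest levels per kilobase of the set (1.92, 1.92 and 0.96 CPM per kb). With an offset for GC content in each library, 11 members differed for 8wk over E16 and 9 for 8wk over P14, in place of 12 and 12. Of all 18931 genes, 1927 were then lower and 2447 higher for 8wk over E16, and 957 lower and 1104 higher for 8wk over P14. For the ME effect the members' correlation with GC content was -0.27, -0.26 and 0.20 at E16, P14 and 8wk, and the offset gave 19, 25 and 25 lower members. The number of all genes lower rose as well, to 1998, 2364 and 3173 from 1603, 1770 and 2708. For the differences of ME effects the members' correlation was 0.50 for 8wk minus E16 and 0.54 for 8wk minus P14 (0.19 and 0.13 over all genes). Nuf2 and Mad2l1 are at the low end, with 41.69% and 40.1% GC. With only the P14 and 8wk controls in the fit the count for 8wk over P14 was 2. In that fit 615 of 17090 genes were lower and 477 higher, so the members' share was no larger than that of all genes. Without 8wk control library 3 the count was 4 (568 of 19298 genes lower and 421 higher). It was 5 without 8wk control library 2 (613 of 19464 genes lower and 892 higher). Without P14 control library 3 or 4 it was 6 (440 of 19322 lower and 489 higher, and 809 of 19333 lower and 920 higher).

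**Figure D5:**
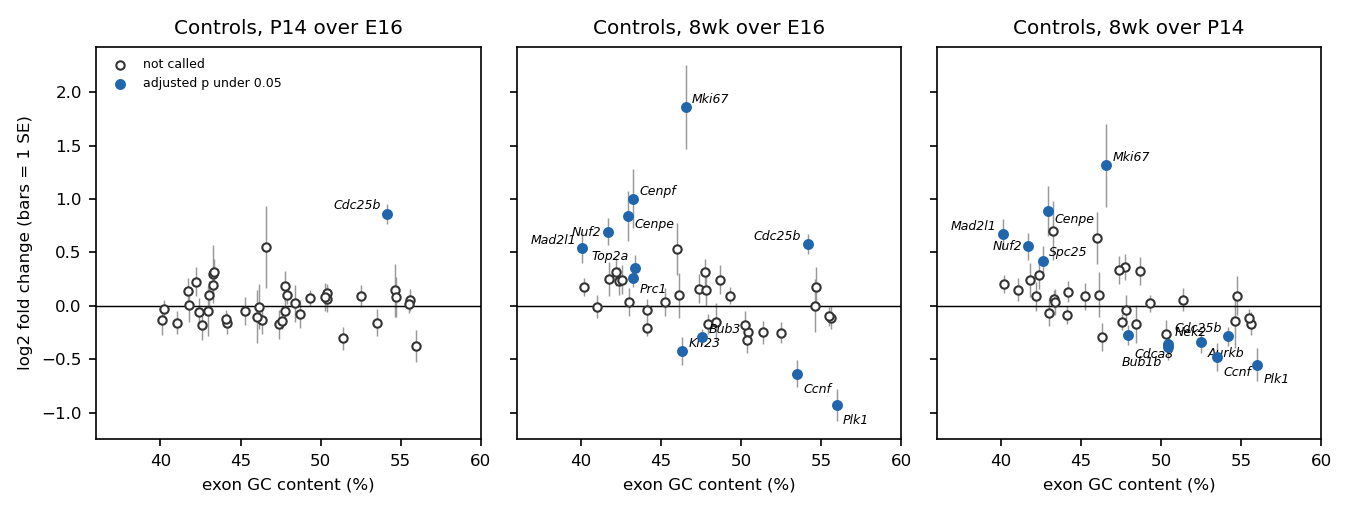
Log2 fold change between control ages for the 40 members against exon GC content in percent, with 1 SE, for P14 over E16, 8wk over E16 and 8wk over P14. Filled points passed the test and are named. In the 8wk panels most called members above 0 lie at low GC content, Cdc25b in 8wk over E16 excepted, and Plk1 and Ccnf lie below 0 at high GC content.

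Other genes of the mitotic machinery were read from lists of genes outside the 40. For comparison, 8.47%, 9.35% and 14.3% of all genes were lower at E16, P14 and 8wk, and 13.3%, 12.7% and 14.2% higher. Of the other spindle and cytokinesis genes, 8 of 30 were lower at E16, 20 at P14 and 18 at 8wk, and none was higher (median log2 fold changes -0.30, -0.46 and -0.39). Kif22, a chromosome-arm kinesin, had -0.41 ± 0.10 (SE, adjusted p = 0.00578), -0.57 ± 0.10 (SE, adjusted p = 0.000357) and -0.37 ± 0.10 (SE, adjusted p = 0.01) at E16, P14 and 8wk. Tacc3, a spindle stabiliser, had -0.52 ± 0.12, -0.59 ± 0.12 and -0.45 ± 0.12, and Racgap1, the partner of Kif23 in centralspindlin, -0.29 ± 0.09, -0.43 ± 0.09 and -0.28 ± 0.09. All were called at all 3 ages, as was Depdc1b. Other kinetochore genes had 3, 7 and 14 of 28 lower and none higher (medians -0.16, -0.23 and -0.31). Zwint, which anchors the checkpoint motor dynein to kinetochores, was lower at all 3 ages (-0.62 ± 0.10 (SE, adjusted p = 0.00019), -0.57 ± 0.10 (SE, adjusted p = 0.000409) and -0.48 ± 0.10 (SE, adjusted p = 0.0017)). Cenpu was lower at E16 and 8wk (-0.54 ± 0.14 and -0.54 ± 0.14), Ska3 at P14 and 8wk (-0.44 ± 0.11 and -0.43 ± 0.11), and Cenpn at E16 and P14 (-0.29 ± 0.10 and -0.40 ± 0.10).

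The subunits of the APC/C and its G1 activator Cdh1 had 1, 8 and 2 of 17 lower and none higher, of which the E16 and 8wk counts are no larger a share than that of all genes lower at those ages (8.47% and 14.3%, with 9.35% at P14; medians -0.11, -0.22 and -0.16). Anapc1, the largest subunit, was lower at P14 (-0.58 ± 0.13, SE, adjusted p = 0.00195), Ube2s at E16 and P14 (-0.41 ± 0.13 and -0.38 ± 0.13), Cdc16 at P14 and 8wk (-0.27 ± 0.09 and -0.30 ± 0.09) and Cdc26 at 8wk (-0.57 ± 0.14). Of the condensin, cohesin and separase genes, 16 of 18 were measured and 2, 7 and 4 were lower with 1 higher at each age. Ncaph2, of condensin II, was lower at all 3 ages (-0.36 ± 0.10, -0.42 ± 0.10 and -0.29 ± 0.10). Espl1, separase, was lower at E16 and P14 (-0.53 ± 0.17 (SE, adjusted p = 0.0285) and -0.78 ± 0.17 (SE, adjusted p = 0.00184)), and Cdca5, sororin, which protects cohesion, at P14 and 8wk (-0.32 ± 0.09 and -0.32 ± 0.09). The higher one was Wapl, the factor that releases cohesin from chromosomes, at 1.28 ± 0.32 (SE, adjusted p = 0.00671), 1.21 ± 0.32 (SE, adjusted p = 0.00931) and 0.97 ± 0.32 (SE, adjusted p = 0.0271). Of 15 MuvB, B-MYB and pocket protein regulators, 2, 3 and 4 were lower and 2, 1 and 0 higher. Among all genes 13.3%, 12.7% and 14.2% were higher at E16, P14 and 8wk, and the E16 count of higher regulators is about that share. Besides Mybl2, Nfyc, a subunit of the CCAAT-binding factor NF-Y, was lower at E16 and P14 (-0.33 ± 0.12 and -0.35 ± 0.12) and E2f4 at P14 and 8wk (-0.41 ± 0.14 and -0.43 ± 0.14). Tfdp1, the E2F partner, was higher at E16 (0.42 ± 0.12, SE, adjusted p = 0.0141) and P14 (0.35 ± 0.12, SE, adjusted p = 0.0364).

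Of 15 other entry kinases, phosphatases and inhibitors, 2, 2 and 6 were lower and 3 were higher at each age, and most did not pass the test at E16 or P14. Among all genes 8.47%, 9.35% and 14.3% were lower and 13.3%, 12.7% and 14.2% higher. Cdc25a, the CDC25 phosphatase that acts at the start of S phase as well as at mitosis, was higher in ME cells, at 1.67 ± 0.22 (SE, adjusted p = 1.5e-05), 1.72 ± 0.22 (SE, adjusted p = 9.53e-06) and 1.60 ± 0.22 (SE, adjusted p = 2.46e-05). Wee1, the kinase that keeps CDK1 inactive and so opposes the CDC25 enzymes, was higher as well, at 2.11 ± 0.37 (SE, adjusted p = 0.000398), 2.03 ± 0.37 (SE, adjusted p = 0.000465) and 1.54 ± 0.36 (SE, adjusted p = 0.00362). Ppp2r2d, a B-type subunit of the phosphatase that reverses CDK1 phosphorylation, was higher at 1.87 ± 0.49 (SE, adjusted p = 0.00893), 1.97 ± 0.49 (SE, adjusted p = 0.00594) and 2.07 ± 0.49 (SE, adjusted p = 0.00369). Melk was lower at E16 and P14 (-0.31 ± 0.09 and -0.44 ± 0.09). Cdc25a was higher in the same libraries in which Cdc25c was lower at all 3 ages and Cdc25b was lower at P14.

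The other phases of the cycle are given for comparison, beside the 8.47%, 9.35% and 14.3% of all genes lower at E16, P14 and 8wk. The shares of all genes higher were 13.3%, 12.7% and 14.2%. Of 36 DNA replication genes, 10, 21 and 26 were lower at E16, P14 and 8wk and none was higher (medians -0.27, -0.41 and -0.45). Orc1, of the origin recognition complex, had -0.94 ± 0.16 (SE, adjusted p = 0.000208), -0.82 ± 0.16 (SE, adjusted p = 0.0007) and -0.91 ± 0.16 (SE, adjusted p = 0.000265), and Mcm10, -0.72 ± 0.15, -0.87 ± 0.15 and -0.90 ± 0.15. Pola2 (-0.32 ± 0.10, -0.52 ± 0.10 and -0.49 ± 0.10) and Chaf1b (-0.32 ± 0.10, -0.44 ± 0.10 and -0.52 ± 0.10) were lower at all 3 ages too. Of 16 G1 cyclins, kinases and inhibitors, 15 were measured, with 3, 2 and 1 lower and 3, 5 and 4 higher (medians 0.16, 0.32 and 0.65). The inhibitor Cdkn1b (p27) was higher at all 3 ages (0.92 ± 0.22 (SE, adjusted p = 0.00464), 1.55 ± 0.22 (SE, adjusted p = 3.44e-05) and 0.65 ± 0.22 (SE, adjusted p = 0.0292)), as was Cdkn2d (0.51 ± 0.15, 0.65 ± 0.15 and 0.87 ± 0.15). Cdkn1c (p57) was higher at E16 (3.44 ± 0.60, SE, adjusted p = 0.000386) and P14 (2.05 ± 0.56, SE, adjusted p = 0.0115). Cdk4, the G1 kinase they restrain, was lower at all 3 ages (-0.33 ± 0.09, -0.43 ± 0.09 and -0.50 ± 0.09).

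Some markers of other blood cells differed between the same groups. The shares of all genes lower were 8.47%, 9.35% and 14.3% at E16, P14 and 8wk, and of those higher 13.3%, 12.7% and 14.2%. At E16, 7 of 11 megakaryocyte markers were lower in ME cells (summed level 193.7 to 341.1 CPM in ME libraries and 378.6 to 756.5 CPM in controls), and neutrophil markers summed to 983.4 to 5858 CPM in ME libraries and 4029 to 10090 CPM in controls, with 1 of 12 called. Monocyte and macrophage markers summed to 107.4 to 610.2 CPM in E16 ME libraries and 477 to 1375 CPM in E16 controls. Of these 12, 0 were lower and 1 higher, and their median log2 fold change was 0.36, opposite to the sums. B cell precursor markers summed to 126.1 to 243.8 CPM in E16 ME libraries and 77.15 to 89.27 CPM in E16 controls, with 3 of 12 higher. At P14, 10 of 12 were higher (108.1 to 461.1 CPM in ME libraries and 81.99 to 147.8 CPM in controls). At 8wk, 7 of 12 monocyte and macrophage markers were higher (162.4 to 1149 CPM in ME libraries and 164.2 to 869.4 CPM in controls), and mast cell and basophil markers summed to 31.44 to 89.58 CPM in ME libraries and 163.2 to 188.9 CPM in controls, with 2 of 8 measured markers lower. Erythroid markers summed to 124 to 308.8 CPM in 8wk ME libraries and 297.5 to 350.3 CPM in 8wk controls. Of 11 measured, 1 was lower and 0 higher, and their median log2 fold change was 0.68, opposite to the sums. The LSK markers themselves summed to 3290 to 4064 CPM in 8wk ME libraries and 2564 to 2843 CPM in 8wk controls, with 4 of 10 higher and 2 lower. Erythroid markers summed to 362.3 to 1413 CPM in E16 ME libraries and 1009 to 1468 CPM in E16 controls, and to 253.5 to 346.9 CPM in P14 ME libraries and 323 to 411.2 CPM in P14 controls. At E16 2 were lower and 1 higher (median log2 fold change -0.13), and at P14 1 was lower and 0 higher (median -0.05). Mast cell and basophil markers had 2 of 8 lower at E16 and P14 too. Megakaryocyte markers had 0 lower and 2 higher at P14, and 1 and 1 at 8wk. No neutrophil marker was called at P14 or 8wk, and their medians were -1.80, -1.14 and 1.47 at E16, P14 and 8wk. Of monocyte and macrophage markers 3 were higher at P14, and of B cell precursor markers 2 at 8wk. LSK markers had 1 lower and 2 higher at E16 and at P14. Median CPM over the libraries was 0 for the T cell marker Cd3e and for the hepatocyte gene Alb, and 0.0431 for the neutrophil marker Ly6g. These genes do not stand for their lists. The hepatocyte genes Ttr, Serpina1a and Fgb also had a median of 0 and Apoa1 0.041 CPM, but Afp had 10.15 CPM. Medians of the 12 neutrophil markers ran from 0.27 CPM (Retnlg) to 1400 CPM (Mpo). The part of these cell types in the mitosis gene results was not tested.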

How the data were processed

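Gene counts were deposited by the authors as 1 table of raw counts for 24 libraries. Per the submitters' processing notes, STAR 2.7.9a and featureCounts 2.0.3 (Subread) were used with GRCm38. The strand setting is not given in the sources used here, so reads of overlapping antisense genes cannot be told apart. From the 55774 lines, 55487 unique identifiers were kept, after 168 identifiers that stood on several lines with the same counts were kept once each. Totals were 33.892 to 69.296 M counts per library.

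All 24 libraries were fitted together in edgeR 4.0.16 (R 4.3.3) with 1 mean per group, TMM scaling, a filter with a minimum count of 10 (18931 genes left) and robust quasi-likelihood tests. P-values were Benjamini-Hochberg adjusted over all genes tested, with a threshold of 0.05. Differences between ages were tested as contrasts of the ME effects. Alternatives used DESeq2 1.42.0, limma 3.58.1, other scalings and filters, a GC offset, a replicate block and the omission of single libraries. The omission of the 3 libraries that stand apart was added after seeing the data.

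Replicate numbers were shared across groups. Deviations of same-numbered libraries from their group means correlated at 0.137 to 0.232 at P14, at -0.043 to 0.001 at E16 and at -0.088 to 0.118 at 8wk. The correlation was thus above 0 throughout only at P14. The block fits took the number as a block within every age for the ME effects and their differences. For the control ages the block ran across all groups. The main fit, which gave the P14 counts and values unless stated, had no block. The members and lists were chosen with earlier results of these data known. Values in every library are given for 19 members: in each of the 10 roles those with the smallest p over the 3 ME contrasts tested together, 2 at most, and always Ccnb1, Cdc20, Foxm1 and Mki67. Up to 4 genes of each pathway list are named by the same p. Promoter sequences are RefSeq's, on GRCm38.p6.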

Additional observations from a re-analysis of the deposited data

Results flagged for a closer look

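In 14 of 240 sets of 4 libraries (5.83%; chance gives about 1 in 20), the highest or lowest library of a member stood far from the other 3 of its group. E16 ME library 4 was lowest for 4 cyclins or passenger genes: Ccna2 at 205.87 CPM (others 309.37 to 321.64), Ccnb1 at 329.48 CPM (others 416.37 to 428.26), Ccnb2 at 205.09 CPM (others 255.77 to 259.89) and Cdca8 at 127.33 CPM (others 155.32 to 159.08). It is also 1 of the 3 libraries that stand apart over all genes. P14 ME library 3 was highest for 5 members: Bub1 at 114.39 CPM (others 95.04 to 96.39), Cenpe at 12.71 CPM (others 8.17 to 8.91), Kif11 at 142.01 CPM (others 112.1 to 114.96), Tpx2 at 125.51 CPM (others 95.19 to 99.9) and Top2a at 347.49 CPM (others 278.38 to 287.4).

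The other 5 sets each had a library of their own. Ccnb2 was highest in P14 ME library 1 at 244.53 CPM (others 232.78 to 234.62), and Cdca8 lowest in P14 ME library 2 at 146.3 CPM (others 161.58 to 162.72). Mad2l1 was lowest in 8wk ME library 4 at 162.71 CPM (others 183.59 to 187.66). Ccnb1 was highest in P14 control library 4 at 509.68 CPM (others 435.93 to 447.81). Pttg1 was highest in P14 control library 3 at 76.25 CPM (others 36.7 to 39.05).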

How the results depend on the processing

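The members' median ME fold change stayed below 0 at each age under the alternatives run. Lower members at E16 numbered 18, against 8 with library size only, 11 with no filter and 10 without the 3 libraries that stand apart. All genes lower numbered 1603 of 18931, against 1004 of 18931, 1040 of 38463 and 1453 of 19267 in the same order. With library size only, with at least 1 CPM in 4 libraries and without those 3 libraries, 1 member was higher at E16, in place of 0. Lower members at 8wk numbered 24, against 11 with only the groups compared. Without the 3 libraries, 5 members differed in ME effect for 8wk minus E16 and 2 for 8wk minus P14, in place of 0. Between P14 and E16 controls 1 member was called, against 2 with library size only, DESeq2, at least 1 CPM in 4 libraries, the GC offset with replicate block or without the 3 libraries, and 3 with only the groups compared or the GC offset. Between 8wk and P14 controls 12 were called, against 6 with no filter, 2 with only the groups compared and 7 with the GC offset and replicate block; with library size only 43.2% of all calls there were higher, in place of 55.7%. Of all genes there, 709 were lower and 774 higher of 38463 with no filter, and 975 and 1080 of 18931 with the GC offset and replicate block. The cause of these changes in count was not tested.

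Leaving out single libraries gave 7 to 19 lower members at E16 (1055 to 1427 of all genes), 17 to 27 at P14 (1108 to 2187) and 14 to 24 at 8wk (1359 to 3276). It gave 0 to 3 differing members for 8wk minus E16 and 0 to 1 for 8wk minus P14, 1 to 2 members between P14 and E16 controls and 4 to 15 between 8wk and P14 controls. With the replicate block, lower members numbered 13, 20 and 19 at E16, P14 and 8wk, against 1077, 1181 and 1919 of all 18931 genes. The P14 calls lost were those of Cdk1, Cdc25b and Ube2c. The block alone moved no count by over 1.5 times and changed no other P14 call of a member. For the 57 ME fold changes of the 19 members given in every library, 627 values under other settings held 52 that lost the call and 7 that gained it, and 456 with a library left out held 70 and 4. None of these reversed.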
